A study of Homo sapiens with 6 samples.

Results

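The genes examined encode the TTT complex (TTI1, TTI2 and TELO2), the ATPases RUVBL1 and RUVBL2, and 5 kinase-family proteins that the complex helps to fold (MTOR, ATM, ATR, PRKDC and TRRAP). They were taken by name, 10 genes of 62111 in the deposited tables, and all 10 were among the 15493 genes tested. TTI1 had been found lower in SF3B1-K700E cells in an earlier test of these libraries, so its own values are described here without a test. The other 9 were chosen by function, with earlier results of these data known. RNA was sequenced from K562, an established human erythroleukaemia line that carries the BCR-ABL1 fusion. There were 3 libraries from cells with the K700E substitution in SF3B1, a subunit of the spliceosome part that recognises the branch point, and 3 from cells with wild-type SF3B1 (WT). The labels give no treatment, and do not say how the substitution was introduced, whether the mutant cells are 1 clone or several, or whether replicates came from different cultures. The tests below therefore compare genotypes against the spread of these 6 libraries, part of which may be technical.

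Kinases of the PIKK family are very large proteins that sense nutrients and damaged DNA. Newly made PIKK proteins are passed from the chaperone HSP90 through the TTT complex, and RUVBL1 and RUVBL2 work beside it within the R2TP complex. In many cell types loss of a TTT subunit lowers the protein level of several PIKKs at once, a change that a measurement of RNA does not show. TTI1 is also among the transcripts reported to use a cryptic 3' splice site when SF3B1 is mutated, and the values here are sums per gene, with no splice junctions.

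Levels are given in TPM, reads per length of gene scaled to 1000000 per library, so genes can be compared with each other within a library. TPM multiplied by gene length gave whole read ends, 111628565 to 126480630 in K700E libraries and 104642332 to 136588117 in WT libraries. The 10 genes had between 579 and 50433 read ends per library, so counting error was small and the spread between libraries sets the precision. SF3B1 itself stood at 160, 136 and 118 TPM in K700E and 144, 98.9 and 115 TPM in WT. The erythroid genes that mark K562 were present, 10 of 10 above 1 TPM, with GATA1 at 417 to 540 TPM in K700E and 273 to 494 TPM in WT. The 10 summed to 4088 to 8313 TPM in K700E and 3317 to 5690 TPM in WT. TFRC was at 766, 659 and 1092 TPM in K700E and 528, 466 and 477 TPM in WT, without overlap. The globin gene HBZ was at 382, 346 and 749 TPM in K700E and 182, 208 and 301 TPM in WT, also without overlap. The other erythroid genes overlapped between the groups, and none of the 10 passed the test. Of markers of other cells, 7 lymphoid genes summed to 7.90 to 15.9 TPM in K700E and 6.79 to 10.9 TPM in WT, with 3 above 1 TPM, and the B-cell gene MS4A1 was under 0.1 TPM throughout. A myeloid list of 6 summed to 68.1 to 184 TPM in K700E and 120 to 138 TPM in WT, with 2 above 1 TPM and MPO under 0.1 TPM throughout. Most of that sum was the lysozyme gene LYZ, at 64.6, 96.4 and 174 TPM in K700E and 112, 125 and 112 TPM in WT. The T-cell receptor gene CD3G was at 3.41, 1.30 and 5.08 TPM in K700E and 0.531, 0.463 and 0.443 TPM in WT, without overlap. Of 8 stromal and epithelial genes the 7 matched summed to 855 to 1349 TPM in K700E and 753 to 875 TPM in WT, with 5 above 1 TPM and CDH1 under 0.1 TPM throughout. Most of that sum was VIM, at 1147, 613 and 658 TPM in K700E and 598, 621 and 599 TPM in WT. The epithelial genes EPCAM and KRT19 were present in every library. EPCAM was at 48.8, 62.3 and 58.8 TPM in K700E and 78.9, 43.4 and 61.9 TPM in WT. KRT19 was at 141, 173 and 211 TPM in K700E and 73.5, 208 and 157 TPM in WT. The collagen gene COL1A2 was at 2.38 to 5.94 TPM in K700E and 0.0341 to 0.0476 TPM in WT. Ribosomal protein genes (RPL and RPS) took 15.6 to 16.3% of TPM in K700E and 18.4 to 23.7% in WT. WT replicate 3 lay between the other WT libraries in 75.9% of tested genes. The part of these differences in the results below was not tested.

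TTI1, the large helical scaffold of the TTT complex, was lower in K700E than in WT cells, at 51.0% of the WT mean, and none of the other 9 genes passed the test. TTI1 (ENSG00000101407, GRCh37 chromosome 20, 36611409 to 36661863, minus strand) measured 24.6, 22.8 and 26.9 TPM in the K700E libraries, against 54.0, 42.7 and 49.3 TPM in the WT libraries. Each K700E library lay below each WT library. The means were 24.8 ± 2.05 TPM in K700E and 48.6 ± 5.66 TPM in WT (SD, n = 3 each). In bulk RNA, fewer cells that express a gene and less RNA per cell cannot be told apart. On the log2(TPM + 1) scale the difference was -0.94 (SE 0.14), and 0.813% of tested genes had a difference as low or lower. Because TTI1 was chosen for its fall, that share is a description and not a test. The median tested gene had a difference of 0.13, and relative to it TTI1 lay at -1.07. With each library omitted in turn its difference was between -1.03 and -0.86. Since groups that do not overlap cannot change direction when a library is dropped, that range is no sign of stability.

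**Figure D1:**
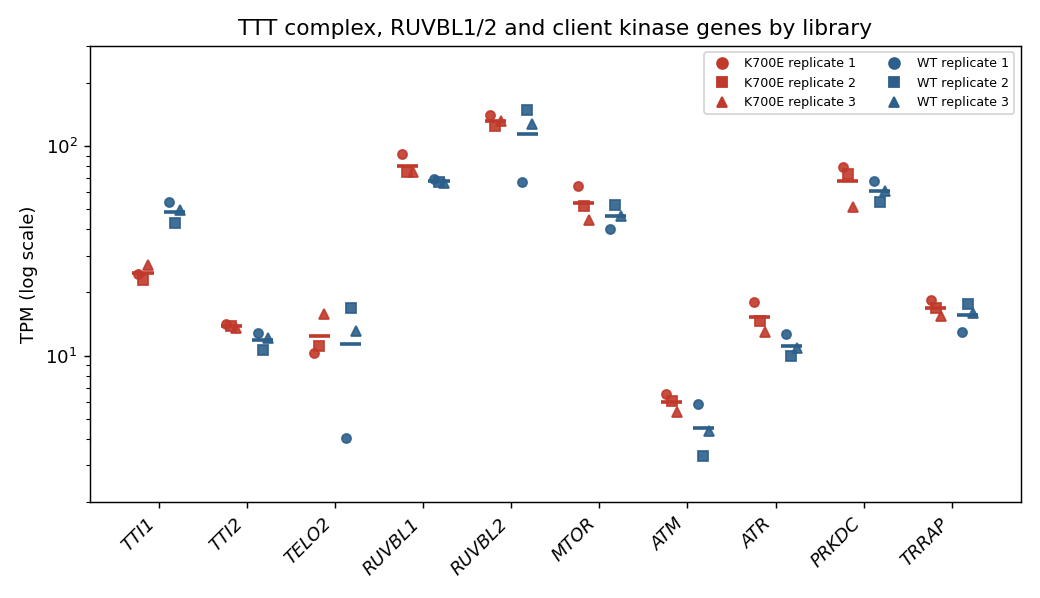
Level of each gene in TPM (log axis) in every library, with K700E in red left of WT in blue, 1 marker shape per replicate and a bar at the mean of 3. TTI1 is the gene whose groups stand farthest apart, at 24.8 TPM in K700E and 48.6 TPM in WT, and WT replicate 1 lies low in TELO2 and RUVBL2.

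TTI1 starts 284 bases from RPRD1B, a gene on the opposite strand whose product binds the tail of RNA polymerase II, so both start from the same stretch of DNA. The 280 bases below are shown because transcripts leave it in both directions and the 2 genes had different values across genotypes. They run from 250 bases before the annotated start of TTI1 through its first 30 transcribed bases, in the direction of TTI1 (RefSeq, GRCh38.p14, chr20:38033427-38033706, minus strand). Capitals mark the single match among 6 motifs searched on both strands.

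TTI1 promoter: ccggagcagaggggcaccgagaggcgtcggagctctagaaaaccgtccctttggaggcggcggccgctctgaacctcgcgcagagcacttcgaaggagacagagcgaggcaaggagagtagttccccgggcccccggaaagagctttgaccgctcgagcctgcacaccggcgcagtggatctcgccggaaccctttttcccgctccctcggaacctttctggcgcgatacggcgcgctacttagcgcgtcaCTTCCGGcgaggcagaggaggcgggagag

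The match is the ETS core CCGGAAG, on the strand opposite to TTI1, which 10.3% of 35116 RefSeq promoter windows of 300 bases hold. No other motif searched overlaps it. The GC box, searched as GGGCGG, is held by 44.95% of those windows, and the box spelled CCAAT by 34.6%. The E-box, searched as CACGTG, is held by 7.26%, the cyclic AMP element TGACGTCA by 1.85% and the TATA box, searched as TATAAA, by 11.5%. The letters of these 5 are not in the window of TTI1. The stretch is 65.7% G and C, against a median of 58.7% over all windows. RPRD1B measured 57.6, 49.4 and 43.8 TPM in K700E and 51.9, 35.9 and 43.8 TPM in WT, and its groups overlapped. Its log2 difference of 0.20 had a 95% interval of -0.22 to 0.62 and a limma adjusted p of 0.630. The ratio of TTI1 to RPRD1B was 0.427, 0.462 and 0.614 in K700E, against 1.04, 1.19 and 1.12 in WT.

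The partners of TTI1 in the complex did not pass. TTI2, which binds the same scaffold (GRCh37 chromosome 8, 33356027 to 33370703), was at 14.1, 13.9 and 13.6 TPM in K700E and 12.8, 10.7 and 12.2 TPM in WT. These values did not overlap and lay slightly higher in K700E, with a log2 difference of 0.21 (95% interval -0.11 to 0.54) and a limma adjusted p of 0.502. TELO2, the subunit through which the complex meets R2TP (GRCh37 chromosome 16, 1543361 to 1560455), was at 10.3, 11.1 and 15.9 TPM in K700E and 4.02, 16.9 and 13.2 TPM in WT. WT replicate 1 was the lowest of the 6 and set most of the WT spread, so that the log2 difference of 0.29 had a 95% interval of -0.77 to 1.34 (limma adjusted p 0.796). Without WT replicate 1 the TELO2 difference was -0.27 (limma adjusted p 0.460).

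TTI1 was the most abundant TTT transcript in every library, and its share of the TTT RNA was lower in K700E than in WT. It made up 50.2, 47.7 and 47.8% of the summed TTT TPM in K700E, against 76.2, 60.8 and 66.1% in WT. The ratio of TTI1 to TTI2 was 1.75, 1.65 and 1.98 in K700E and 4.22, 4.01 and 4.05 in WT, with no overlap. The ratio of TTI1 to TELO2 was 2.38, 2.05 and 1.70 in K700E and 13.4, 2.53 and 3.74 in WT. These ratios share the TTI1 values and are given as a description.

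**Figure D2:**
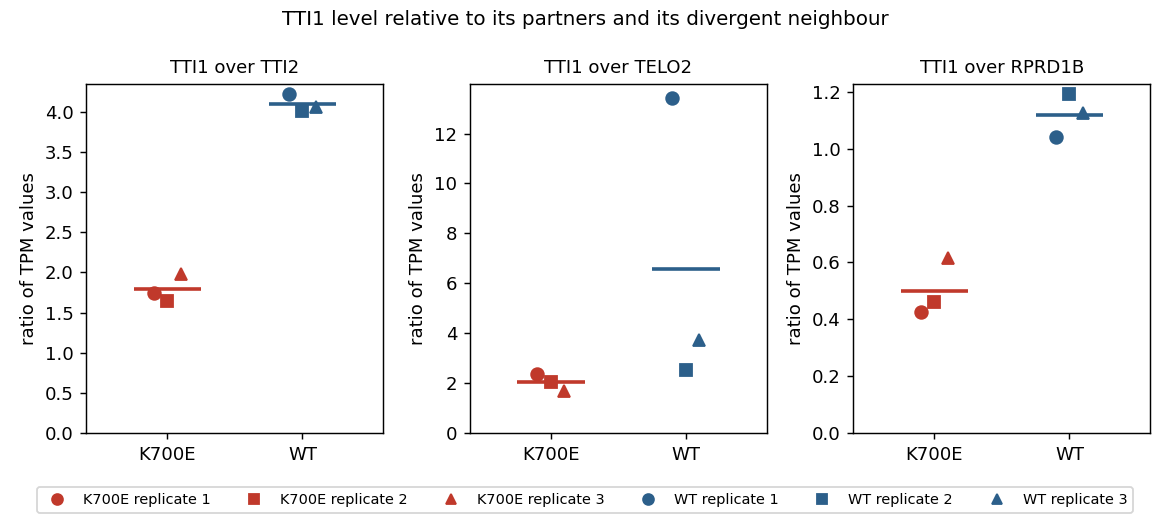
Ratio of TTI1 TPM to the TPM of TTI2, TELO2 and RPRD1B in each library, K700E left of WT, with a bar at the mean of 3. The ratio to TTI2 is 1.65 to 1.98 in K700E and 4.01 to 4.22 in WT, while the ratio to TELO2 in WT is spread by replicate 1.

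RUVBL1 and RUVBL2, the ATPases that form a mixed ring in R2TP and in chromatin remodellers, were the most abundant of the 10 in both genotypes by mean. RUVBL1 (GRCh37 chromosome 3, 127783628 to 127872757) was at 91.2, 75.1 and 74.8 TPM in K700E and 69.9, 67.5 and 66.5 TPM in WT. Its groups did not overlap, and the log2 difference of 0.23 (95% interval -0.07 to 0.54) had a limma adjusted p of 0.431. RUVBL2 (GRCh37 chromosome 19, 49496819 to 49519227) was at 141, 124 and 131 TPM in K700E and 67.3, 148 and 127 TPM in WT. The K700E values lay within the WT range, which WT replicate 1 widened, and the log2 difference of 0.28 (95% interval -0.36 to 0.93) had a limma adjusted p of 0.666. Without WT replicate 1 it was -0.056 (limma adjusted p 0.802).

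MTOR, the kinase of both TOR complexes and a regulator of growth, did not separate by genotype. Its levels (GRCh37 chromosome 1, 11166592 to 11322608) were 64.7, 51.6 and 44.2 TPM in K700E and 40.2, 52.3 and 46.3 TPM in WT, with overlap. The log2 difference was 0.20 (95% interval -0.22 to 0.62, limma adjusted p 0.640).

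The damage kinases ATM and ATR had the highest differences of the 10, and neither passed. ATR, which answers stalled replication (GRCh37 chromosome 3, 142168077 to 142297575), was at 18.1, 14.7 and 12.96 TPM in K700E and 12.7, 9.91 and 10.8 TPM in WT. The lowest K700E library lay just above the highest WT library, and the log2 difference of 0.41 (95% interval 0.0049 to 0.82) had an unadjusted p of 0.0479 and a limma adjusted p of 0.296. ATM, which answers double-strand breaks (GRCh37 chromosome 11, 108093559 to 108239829), was the least abundant of the 10, at 6.54, 6.09 and 5.39 TPM in K700E and 5.86, 3.33 and 4.37 TPM in WT. Its groups overlapped through WT replicate 1, and the log2 difference of 0.37 (95% interval -0.10 to 0.84) had a limma adjusted p of 0.420.

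PRKDC, the catalytic subunit of the DNA-dependent kinase of end joining (GRCh37 chromosome 8, 48685672 to 48872738), was at 79.0, 73.2 and 51.0 TPM in K700E and 67.9, 54.0 and 61.2 TPM in WT. K700E replicate 3 was the lowest of the 6 libraries, and the log2 difference of 0.13 (95% interval -0.32 to 0.58) equalled that of the median gene (limma adjusted p 0.784). TRRAP, the family member without kinase activity and a scaffold of histone acetyltransferases (GRCh37 chromosome 7, 98476113 to 98610866), was at 18.3, 16.8 and 15.4 TPM in K700E and 12.9, 17.6 and 16.0 TPM in WT. Its groups overlapped, at a log2 difference of 0.12 (95% interval -0.26 to 0.50, limma adjusted p 0.769). Under median-ratio scaling, which moves the median gene to -0.0006, the differences were -0.013 for PRKDC and -0.020 for TRRAP. The 5 kinase-family genes summed to 187, 162 and 129 TPM in K700E and 140, 137 and 139 TPM in WT, with overlap.

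**Figure D3:**
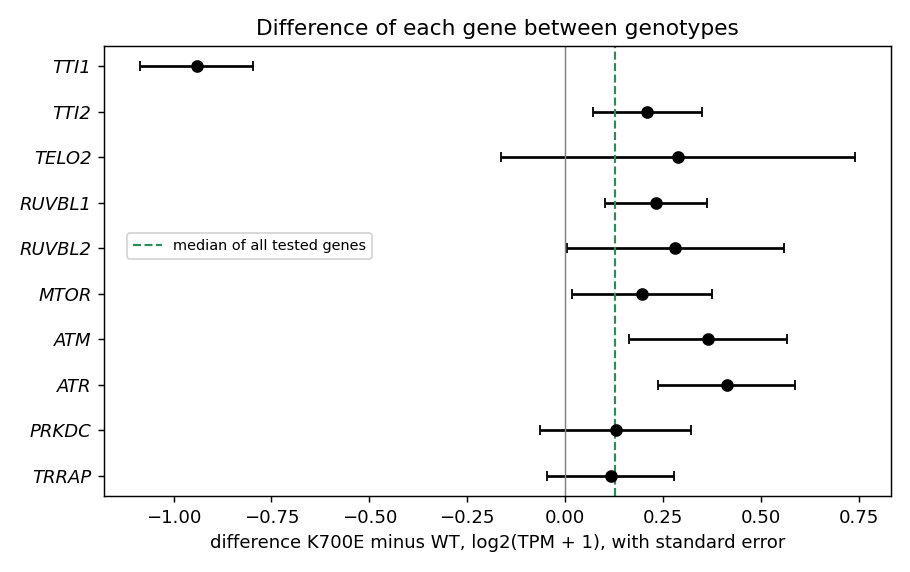
Difference between K700E and WT on the log2(TPM + 1) scale for each gene (points) with its standard error (bars), 3 libraries a group. TTI1 lies at -0.94 and the other 9 between 0.12 and 0.41, near the dashed line of the median tested gene at 0.13.

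Of the 9 genes other than TTI1, 0 passed at a limma adjusted p under 0.05, and limma-voom on the recovered read ends also called 0. The background over all tested genes was 1.38% (1.15% higher and 0.232% lower). That is 178 genes higher and 36 lower, against 111 and 44 with TMM scaling and 297 and 247 with GC correction. At an unadjusted p under 0.05 there was 1 of the 9, against 16.5% of all tested genes. Their median log2 difference was 0.23, against 0.13 for all tested genes, and 8 of the 9 lay above that median. Libraries did not overlap between the groups for 3 of the 9 (33.3%), namely TTI2, RUVBL1 and ATR, against 24.0% of all tested genes.

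By mean level the order in K700E was RUVBL2, RUVBL1, PRKDC, MTOR, TTI1, TRRAP, ATR, TTI2, TELO2 and ATM. The values of RUVBL1 and PRKDC overlapped, as did those of PRKDC and MTOR, TRRAP and ATR, ATR and TTI2, and TTI2 and TELO2. In WT the order was RUVBL2, RUVBL1, PRKDC, TTI1, MTOR, TRRAP, TTI2, TELO2, ATR and ATM. There RUVBL2 and RUVBL1 overlapped through WT replicate 1, as did RUVBL1 and PRKDC, TTI1 and MTOR, TTI2 and TELO2, and TELO2 and ATR. TTI1 thus stood beside MTOR in WT, with a ratio of 1.34, 0.817 and 1.06, and below it in every K700E library, at 0.381, 0.442 and 0.609.

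WT replicate 1 departed from the other WT libraries in step with base composition. Its level relative to the mean of WT replicates 2 and 3 was -1.90 on the log2 scale for TELO2, whose annotated transcripts are 66.2% G and C, and -1.03 for RUVBL2 at 59.9%. It was 0.61 for ATM at 39.3% and 0.23 for TTI1 at 48.4%. Over the 10 genes, which share these libraries, Spearman's rho with GC content was -0.99, and over 15129 tested genes with a GC value it was -0.74. Other libraries of both genotypes also varied with base composition. Over the 15129 genes, Spearman's rho of a library's deviation with GC content was -0.69, 0.57 and 0.33 for WT replicates 1, 2 and 3. For K700E replicates 1, 2 and 3 it was -0.27, -0.19 and 0.46. After a correction for GC content the log2 difference of TTI1 was -1.09, that of TELO2 0.23 and that of RUVBL2 0.16. The same correction moved the median tested gene from 0.13 to -0.010, so these values have a different centre from those of the main fit. The part of base composition in the difference between genotypes was not tested further.

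**Figure D4:**
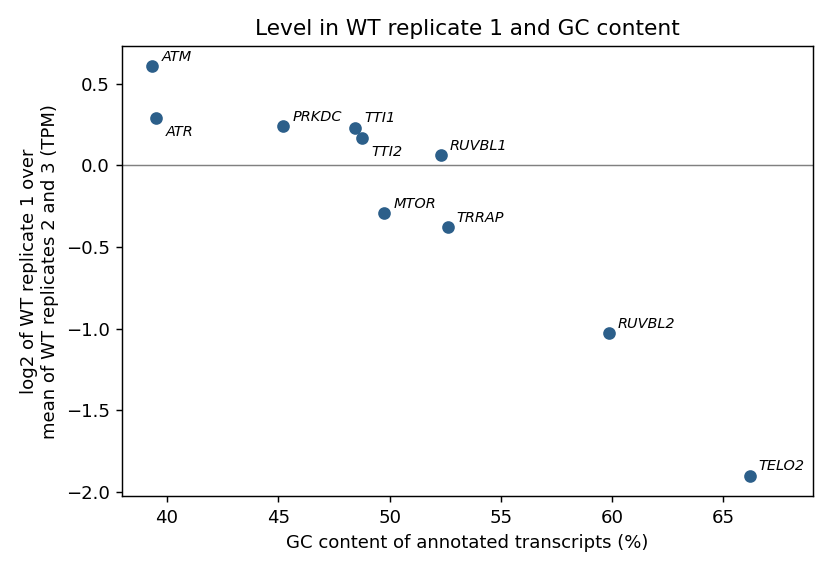
For each of the 10 genes, the log2 ratio of WT replicate 1 to the mean of WT replicates 2 and 3 (TPM) against the GC content of its annotated transcripts in percent. ATM, with the lowest GC content (39.3%), has the highest ratio at 0.61, and TELO2, with the highest (66.2%), has the lowest at -1.90.

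Genes that lie beside the members were also compared. The set was 19 tested genes that overlap a member or are the nearest tested gene within 100 kb on a side. RPRD1B was the only tested neighbour of TTI1, so counts over the set cannot show whether the fall of TTI1 covered a region. Of the 19, limma called 0, against 1.38% of all tested genes, and limma-voom also called 0. At an unadjusted limma p under 0.05 there were 2, against 16.5% of all tested genes. The log2 differences of the 19 ran from -0.14 to 0.39. ATM shares a start region with NPAT, an activator of histone genes 193 bases away, which was at 21.8, 19.7 and 19.0 TPM in K700E and 19.0, 12.9 and 15.0 TPM in WT (log2 difference 0.36, limma adjusted p 0.355). PRKDC starts 719 bases from MCM4, a subunit of the replicative helicase, at 187, 195 and 173 TPM in K700E and 160, 131 and 151 TPM in WT (log2 difference 0.33, limma adjusted p 0.259).

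The strand setting of the counting is not given in the sources used here, so reads of overlapping genes may be assigned to either or to neither. TTI2 overlaps MAK16 by 2754 bases, and MAK16, a ribosome assembly factor, averaged 26.7 ± 2.49 TPM in K700E and 21.5 ± 6.78 TPM in WT (SD, n = 3 each). RUVBL1 overlaps SEC61A1, a subunit of the protein channel of the endoplasmic reticulum, by 6899 bases. SEC61A1 averaged 155 ± 12.5 TPM in K700E and 145 ± 4.79 TPM in WT (SD, n = 3 each). RUVBL1 also overlaps EEFSEC, the elongation factor for selenocysteine, by 434 bases, and TELO2 overlaps the ciliary gene IFT140 by 28 bases. EEFSEC averaged 16.0 ± 3.27 TPM in K700E and 17.0 ± 4.62 TPM in WT, and IFT140 5.57 ± 1.09 TPM in K700E and 6.25 ± 1.03 TPM in WT (SD, n = 3 each). TTI1 overlaps no annotated gene in the deposited table. GENCODE 29 lists 6 transcripts of TTI1, 4 of them protein-coding and 0 marked as decay targets or retained introns, against 30 transcripts of ATM with 9 retained introns and 14 of RUVBL2 with 4 decay targets.

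Across the wider pathway 1 gene fell. Of 155 genes in 10 lists of partners, inputs and effectors, 150 were tested, 1 was lower, 0 were higher and 149 did not pass limma. This is 0.667% called, against 1.38% over all tested genes, and 7 of the 150 had an unadjusted p under 0.05, against 16.5% over all tested genes, a share that also stands behind the unadjusted counts of the single lists below. The median log2 difference of the 150 was 0.11, against 0.13 over all tested genes. The gene that fell was RRAGD (GRCh37 chromosome 6, 90074335 to 90121992), which encodes a Rag GTPase, the switch that brings mTOR complex 1 to the lysosome when amino acids are present. RRAGD measured 6.29, 6.08 and 5.24 TPM in K700E, against 15.9, 14.1 and 15.0 TPM in WT. Every K700E library was under 7 TPM and every WT library over 14 TPM. The log2 difference was -1.22 (SE 0.14, limma adjusted p 0.0157). RRAGD did not pass with WT replicate 3 omitted (limma adjusted p 0.126) or with K700E replicate 2 omitted (0.0520).

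The other Rag GTPases did not pass. RRAGC, the close paralog that can take the place of RRAGD in the dimer, was at 19.3, 23.1 and 15.9 TPM in K700E and 20.8, 17.5 and 19.8 TPM in WT. The limma adjusted p of RRAGC was 0.984, with a 95% interval of the log2 difference of -0.41 to 0.39. RRAGA was at 65.1, 52.3 and 52.1 TPM in K700E and 40.2, 48.2 and 44.7 TPM in WT (limma adjusted p 0.312), and RRAGB averaged 10.8 ± 1.32 TPM in K700E and 11.6 ± 0.563 TPM in WT (limma adjusted p 0.786). FNIP2, a partner of the Rag regulator folliculin, had a log2 difference of 0.34 (limma adjusted p 0.371). The list of mTORC1 inputs held 22 tested genes with a median of 0.09.

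The subunits and effectors of mTOR showed 0 calls. Of 6 tested subunits of both TOR complexes, AKT1S1, an inhibitory subunit of complex 1, came nearest, at a log2 difference of 0.40 (limma adjusted p 0.357). MAPKAP1 of complex 2 and RPTOR of complex 1 had differences of 0.14 and 0.12, and the 6 had 0 at an unadjusted p under 0.05. Of 12 effectors, PDCD4, a translation inhibitor that is degraded downstream of mTOR, was at 75.4, 79.0 and 80.1 TPM in K700E and 65.6, 43.2 and 52.5 TPM in WT. Its groups did not overlap, and the log2 difference of 0.55 had a limma adjusted p of 0.172. GRB10 and RPS6KB2 had differences of -0.29 and 0.36 (limma adjusted p 0.368 and 0.636), and 1 of the 12 effectors had an unadjusted p under 0.05. The medians were 0.08 for the subunits and 0.08 for the effectors.

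The chaperones that work with the TTT complex also gave 0 calls among 21 tested genes, with 2 at an unadjusted p under 0.05 and a median of 0.09. UXT, a prefoldin-like subunit of the R2TP assembly, was at 305, 240 and 281 TPM in K700E and 339, 445 and 372 TPM in WT, without overlap, at a log2 difference of -0.48 (limma adjusted p 0.181). With GC correction UXT passed, at -0.64 (limma adjusted p 0.0388). CSNK2A2, a catalytic subunit of the kinase CK2 that phosphorylates TELO2, was at 162, 179 and 163 TPM in K700E and 212, 223 and 205 TPM in WT, also without overlap (log2 difference -0.34, limma adjusted p 0.197). PFDN6 had a difference of 0.38 (limma adjusted p 0.314).

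The damage response partners did not pass either. Of 12 ATM partners 0 were called and 0 had an unadjusted p under 0.05. Among them MDC1, the mediator at breaks, had a log2 difference of -0.22, RNF8 0.29 and NBN, of the complex that activates ATM, 0.32 (limma adjusted p 0.411, 0.432 and 0.476). Of 17 ATR partners 0 were called and 1 had an unadjusted p under 0.05. RPA2, a subunit of the single-strand binding protein that recruits ATR, was at 262, 269 and 232 TPM in K700E and 212, 163 and 182 TPM in WT. Its groups did not overlap, and the log2 difference of 0.46 had a limma adjusted p of 0.169. ATRIP, the obligate partner of ATR, was at 6.57, 6.02 and 5.84 TPM in K700E and 4.97, 5.21 and 5.38 TPM in WT (log2 difference 0.21, limma adjusted p 0.512), and TIMELESS had a difference of 0.20. The medians were 0.05 for the ATM list and 0.18 for the ATR list.

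Among 10 end-joining genes around PRKDC 0 were called and 0 had an unadjusted p under 0.05, with DCLRE1C, POLM and CYREN at 0.27, 0.40 and 0.38 and a median of 0.16. Among 32 SAGA and TIP60 subunits around TRRAP 0 were called and 2 had an unadjusted p under 0.05. TAF12 had a difference of 0.40, SUPT3H -0.34 and TAF10 -0.37 (limma adjusted p 0.158, 0.294 and 0.327), and the median was 0.09. With GC correction SUPT3H passed, at -0.48 (limma adjusted p 0.0391). The INO80 and SRCAP remodellers, which contain RUVBL1 and RUVBL2, gave 0 calls and 0 unadjusted among 14 tested, with ZNHIT1, ACTR5 and INO80C at 0.36, 0.18 and 0.21 and a median of 0.11. SMG1, the PIKK of nonsense-mediated decay, was at 17.1, 17.9 and 12.6 TPM in K700E and 17.2, 13.1 and 14.3 TPM in WT. Its partners SMG8 and SMG9 and its substrate UPF1 had differences of 0.09, -0.19 and 0.12, and the 4 gave 0 calls and 0 unadjusted. SMG1 has near-identical pseudogene copies, so its value is uncertain.

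**Figure D5:**
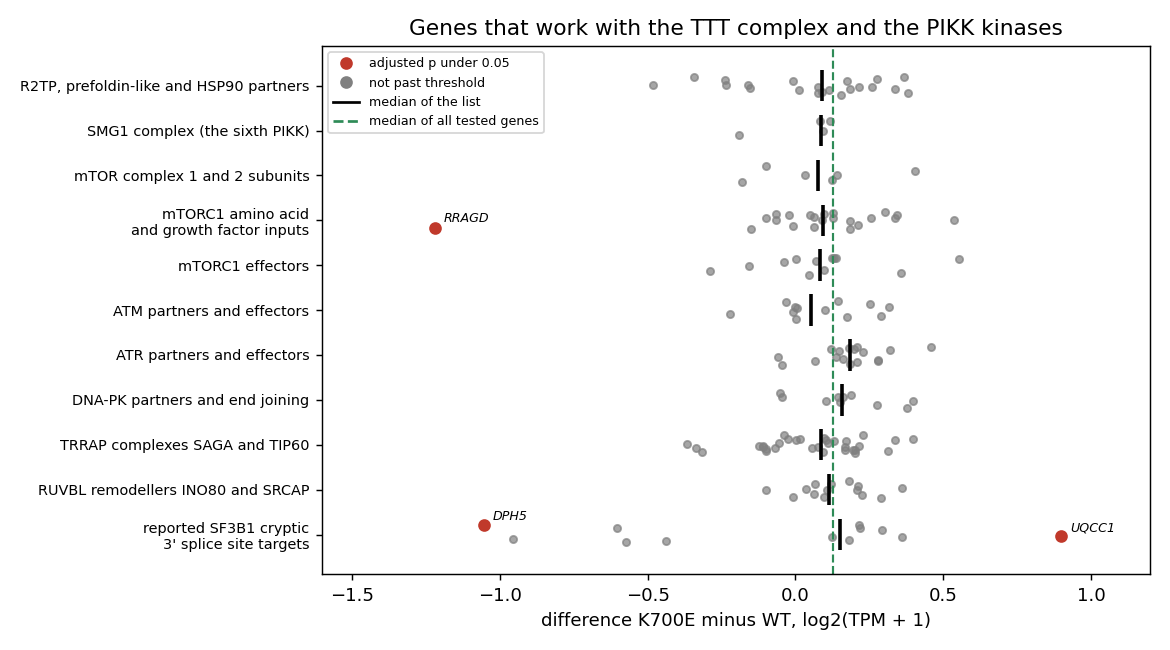
Difference between K700E and WT on the log2(TPM + 1) scale for each tested gene of the lists, with genes past a limma adjusted p of 0.05 in red and named. RRAGD at -1.22 is the single red point in the 10 pathway lists. Each list median (black) lies from 0.05 to 0.18, and the list of splice site targets at the bottom has 2 red points.

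Other transcripts reported to use cryptic 3' splice sites with mutant SF3B1 were set beside TTI1, a list that is not independent of earlier results. Of 12 tested 1 fell, 1 rose and 10 did not pass, against 1.38% called over all tested genes, and their median was 0.15. There were 5 of the 12 at an unadjusted p under 0.05, against 16.5% of all tested genes, and 8 without overlap, against 24.0%. DPH5, an enzyme of diphthamide synthesis, was at 25.1, 26.5 and 27.3 TPM in K700E and 59.2, 55.4 and 52.6 TPM in WT. The groups did not overlap, and DPH5 had a log2 difference of -1.05 (limma adjusted p 0.0157). UQCC1, which helps to build complex III of the respiratory chain, was at 67.9, 72.2 and 60.0 TPM in K700E and 40.8, 30.5 and 35.1 TPM in WT (log2 difference 0.90, limma adjusted p 0.0427). PPP2R5A and MAP3K7 had differences of -0.96 and -0.60 (limma adjusted p 0.0621 and 0.126). PPP2R5A passed under median-ratio scaling (0.0378), TMM scaling (0.0378), limma-voom (0.0400) and GC correction (0.0081), and with WT replicate 2 omitted (0.0428). MAP3K7 passed with GC correction (0.0113). The list thus held 3 calls with limma-voom and 4 with GC correction. Over all genes tested under each setting, limma-voom called 381 of 22158 and GC correction 544 of 15129. K700E stood at 47.2% of WT for DPH5, 49.8% for PPP2R5A, 64.4% for MAP3K7 and 188% for UQCC1, beside 51.0% for TTI1. The limma adjusted p of DPH5 and UQCC1 was 0.114 and 0.231 with WT replicate 3 omitted, and 0.0549 and 0.143 with K700E replicate 2 omitted. UQCC1 was at 0.0864 without WT replicate 2, 0.127 without K700E replicate 1 and 0.0760 without K700E replicate 3. It also did not pass under median-ratio scaling (0.0601), TMM scaling (0.0668), a minimum mean of 5 TPM (0.0563) or protein-coding nuclear genes alone (0.0574). With no filter on low values DPH5 was at 0.0508 and UQCC1 at 0.0970.

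The genes whose levels followed TTI1 most closely over the 6 libraries were LINC01356, RDX, ITGA4, NSMCE4A and ELP2, with Pearson's r of 0.998, 0.995, 0.994, 0.993 and 0.993. Those most opposed were HECW2-AS1, TRAFD1 and PXDC1, with r of -0.999, -0.998 and -0.998. All 6 libraries enter each r, which therefore follows the difference between genotypes, and it is a description over genes ranked for it. RDX, which links actin to the cell membrane, was at 21.9, 20.8 and 24.2 TPM in K700E and 55.1, 39.9 and 43.8 TPM in WT. ELP2, a subunit of the Elongator complex that modifies transfer RNA, was at 33.1, 30.8 and 32.2 TPM in K700E and 75.1, 57.4 and 65.0 TPM in WT. NSMCE4A, a subunit of the SMC5/6 complex, was at 14.6, 13.1 and 15.1 TPM in K700E and 29.3, 21.8 and 24.9 TPM in WT. In RDX, ELP2 and NSMCE4A, as in TTI1, WT replicate 1 was the highest and WT replicate 2 the lowest of the WT libraries, and K700E replicate 2 the lowest of all. ITGA4 was near the floor in K700E, at 0.0487, 0.0986 and 0.304 TPM, with replicate 1 the lowest, and at 3.17, 2.04 and 2.43 TPM in WT.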

How the data were processed

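Messenger RNA libraries of K562 cells were sequenced, 3 per genotype. The authors deposited TPM values per gene, in a separate table for each genotype. Per the file headers, the WT columns carry featureCounts annotation and names in the form STAR writes. Tools listed in the submitters' processing notes are featureCounts 2.0.1, TopHat2 2.1, cutadapt 2.10 and DESeq2, with the build GRCh37. The aligner of the K700E table and the counting settings, strand included, were not given in these sources. Any difference in processing between the tables cannot be told apart from genotype. Every library summed to 1000000 TPM, and 100% of values above 0 were whole read ends within 0.01 after multiplication by the deposited gene length. The tables therefore share gene lengths and were tested together.

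Symbols were joined by gene ID (94.3% of 62111 matched), and GC content and transcripts came from GENCODE 29, by ID only. The 15493 genes averaging 1 TPM or more entered a limma fit (version 3.58.1, R 4.3.3) of log2(TPM + 1), with empirical Bayes and a trend on mean level, two-sided, and Benjamini-Hochberg adjustment over all tested genes at 0.05. Intervals are 95% intervals of that fit, unadjusted. An exact permutation of 3 against 3 libraries cannot go under 0.1 and was not used. Fold changes on this scale understate those of low genes. The fit was tested on simulated data.

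The members and lists were chosen with earlier results of these data known. One gene of the list of splice site targets is not reported here. Named list genes are those called and the 3 with the smallest adjusted p per list. RRAGB, RRAGC, SMG1 and MAP3K7 were added after their values were seen. The 5 genes with the highest and 3 with the lowest correlation with TTI1 were named. There were 17 alternatives. The labels do not say whether a replicate number marks a shared culture or day, so the numbers were not taken as pairs. Same-numbered libraries correlated at 0.281, -0.192 and 0.299 in their deviations from group means, which does not settle the question. Figures came from matplotlib 3.10.9 and tables from pandas 2.3.3 under Python 3.11.15, with scipy 1.17.1 for rank correlations. RefSeq promoter windows matched 7 of the 10 genes. Splice junctions and proteins were not analysed here.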

Additional observations from a re-analysis of the deposited data

How the results depend on the processing

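The number of genes called over the whole table, 214 with the main settings, was 0 with no filter on low values (4891 at an unadjusted limma p under 0.05), 92 with a minimum mean of 5 TPM, 381 with limma-voom on recovered read ends and 544 with GC correction. Leaving out 1 library gave 0 (without WT replicate 3, with 1462 unadjusted) to 182. With the replicate number as a block it was 67, although the labels do not say whether the numbers pair the libraries. RRAGD, DPH5 and UQCC1 did not pass with that block (limma adjusted p 0.0545, 0.0575 and 0.0924). The 9 members other than TTI1 had 0 calls in each of the 17 alternatives, with a lowest limma adjusted p of 0.145. The TTI1 difference ran from -1.11 with TMM scaling to -0.85 with a pseudocount of 5. Scaling moved the median gene from 0.13 to -0.0006 (median-ratio) and -0.026 (TMM), and GC correction moved it to -0.010. Under median-ratio scaling, TMM scaling and GC correction the differences changed sign to -0.013, -0.041 and -0.017 for PRKDC, -0.020, -0.047 and -0.042 for TRRAP, -0.052, -0.081 and -0.068 for SEC61A1, -0.054, -0.080 and -0.054 for SMG1, -0.047, -0.074 and -0.059 for SMG8, -0.026, -0.054 and -0.011 for UPF1, -0.00017, -0.028 and -0.016 for MAPKAP1, and -0.011, -0.037 and -0.016 for RPTOR. RRAGC changed sign to 0.0076 over protein-coding nuclear genes alone. Leaving out 1 library, differences that changed sign ran from -0.27 to 0.65 for TELO2, -0.056 to 0.51 for RUVBL2, -0.0013 to 0.21 for TRRAP, -0.29 to 0.084 for EEFSEC, -0.0059 to 0.23 for SMG1, -0.015 to 0.18 for SMG8, -0.12 to 0.26 for UPF1, -0.17 to 0.34 for RPTOR, -0.042 to 0.63 for RPS6KB2 and -0.14 to 0.12 for RRAGC. Of 1066 gene values under alternatives 40 changed sign. None of the reversed differences belongs to a gene past the threshold. The cause of these changes was not tested.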
